A study of Mus musculus with 14 samples.

Results

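The libraries compared here are 4 mouse eye RNA samples rich in rod photoreceptor transcripts and 6 poor in them, 10 of the 13 libraries of one count table. The rod-rich libraries were naive replicates 4 and 5, pre replicate 4 and onset replicate 3. The rod-poor libraries were naive replicates 1 and 2, pre replicates 1 and 2 and onset replicates 2 and 4. They were chosen by the measured level of 3 rod transcripts, Sag, Gnat1 and Pde6b, as the mean of their log2 CPM (reads of a gene scaled to a common library total). That mean was 8.15 to 9.07 in the rod-rich libraries and 4.28 to 5.87 in the rod-poor ones. Onset 4, the rod-poor library nearest the limit, stood at 5.87 beside 5.98 for pre 3, which was left out, and pre 4, the lowest rod-rich library, stood at 8.15 beside 7.29 for peak 2. Because these values chose the libraries, differences between the classes are given below as descriptions with no p-value.

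The series profiled total RNA by RNA-seq in female mice of 7 to 8 weeks, from eye samples labelled as retinal ganglion cells. The naive group was the untreated control, and the groups pre (before symptoms), onset and peak were stages of EAE, in which mice are immunized so that their immune cells attack central myelin, a model of multiple sclerosis. The labels name no strain and no transgene, and do not say whether replicates came from separate animals or pools, so p-values measure the spread between these samples, which may be technical. The 10 libraries held 2 rod-rich and 2 rod-poor libraries in naive, 1 and 2 in pre, and 1 and 2 in onset, with none at peak. Reads counted to genes were about 2596700 to 7641210 per library over the 13, with 3753800 to 6590970 in the rod-rich and 3308630 to 6413330 in the rod-poor class.

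Rods are the dim-light photoreceptors and the most numerous neurons of the mouse retina. They sit in the outer retina and pass their signal through rod bipolar cells to amacrine and ganglion cells in the inner retina, where the ganglion cells send the axons of the optic nerve. Müller glia span the whole depth of the retina, while resident microglia lie mainly in the synaptic layers between the neurons. A preparation of ganglion cells from a dissociated retina can carry any of these cells, and the contrast asks which of their transcripts were high or low together with the rod transcripts. In such bulk samples, fewer cells of a type and less RNA per cell cannot be told apart.

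Photoreceptor and bipolar genes are known targets of the homeodomain regulators CRX and OTX2, which bind sites with the core TAATCC. The following windows, from 250 bases before to 50 bases after the transcription start (RefSeq, GRCm38.p6), are shown because they belong to genes whose transcripts separated the classes: 4 rod genes with the core, the bipolar channel gene Trpm1 with the core, and the microglial receptor gene P2ry12 without it. Capitals mark TAATCC or its reverse complement GGATTA, the one motif searched, on both strands.
Sag (arrestin, chr1:87803430-87803729, plus strand): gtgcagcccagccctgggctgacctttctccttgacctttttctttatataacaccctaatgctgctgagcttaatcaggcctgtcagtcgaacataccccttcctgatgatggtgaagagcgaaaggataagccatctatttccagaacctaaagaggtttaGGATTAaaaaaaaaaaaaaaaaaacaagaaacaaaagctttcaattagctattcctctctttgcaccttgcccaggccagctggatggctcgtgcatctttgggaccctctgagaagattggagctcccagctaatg
Gngt1 (rod transducin gamma, chr6:3993758-3994057, plus strand): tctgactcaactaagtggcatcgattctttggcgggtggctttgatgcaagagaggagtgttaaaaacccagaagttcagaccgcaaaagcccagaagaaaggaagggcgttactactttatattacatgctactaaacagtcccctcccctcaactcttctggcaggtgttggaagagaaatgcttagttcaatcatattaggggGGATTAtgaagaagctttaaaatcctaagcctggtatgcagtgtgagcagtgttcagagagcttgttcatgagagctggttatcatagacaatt
Cnga1 (rod cyclic GMP channel alpha, chr5:72642703-72643002, minus strand): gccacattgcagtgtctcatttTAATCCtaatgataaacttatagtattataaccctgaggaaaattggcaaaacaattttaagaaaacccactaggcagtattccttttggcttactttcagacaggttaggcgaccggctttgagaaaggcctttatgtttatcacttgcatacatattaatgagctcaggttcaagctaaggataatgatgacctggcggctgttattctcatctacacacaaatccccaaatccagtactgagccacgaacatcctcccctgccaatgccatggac
Cngb1 (rod cyclic GMP channel beta, chr8:95306536-95306835, minus strand): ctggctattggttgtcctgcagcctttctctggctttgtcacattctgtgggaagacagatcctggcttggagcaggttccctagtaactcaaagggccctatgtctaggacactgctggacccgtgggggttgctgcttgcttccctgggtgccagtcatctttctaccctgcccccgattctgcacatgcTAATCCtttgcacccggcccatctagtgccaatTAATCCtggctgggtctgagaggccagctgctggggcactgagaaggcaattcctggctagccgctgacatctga
Trpm1 (ON bipolar transduction channel, chr7:64153585-64153884, plus strand): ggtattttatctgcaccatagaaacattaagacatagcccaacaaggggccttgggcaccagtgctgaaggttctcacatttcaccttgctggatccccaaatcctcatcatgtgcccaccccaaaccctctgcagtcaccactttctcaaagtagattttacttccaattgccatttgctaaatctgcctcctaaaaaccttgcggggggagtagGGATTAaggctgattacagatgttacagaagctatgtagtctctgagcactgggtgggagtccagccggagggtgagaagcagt
P2ry12 (purine receptor of microglia, chr3:59262936-59263235, minus strand): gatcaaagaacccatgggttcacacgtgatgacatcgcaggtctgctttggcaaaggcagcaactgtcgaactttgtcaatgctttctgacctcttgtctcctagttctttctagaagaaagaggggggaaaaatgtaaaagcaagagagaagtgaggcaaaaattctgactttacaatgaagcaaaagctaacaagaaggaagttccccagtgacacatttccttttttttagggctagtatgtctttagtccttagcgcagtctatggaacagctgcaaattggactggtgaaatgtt
The core began 87 bases before the start in Sag, 44 in Gngt1, 228 in Cnga1, 34 in Trpm1, and 58 and 25 in Cngb1. It was present in 4 of the 8 windows found for the rod list. It was in 18.5% of the 346 windows of genes higher in rod-rich libraries by the rule given next, in 5.84% of the 13651 windows of all genes tested and in 7.06% of all 32851 windows of the table. Without genes of the photoreceptor and bipolar lists the share among the higher genes was 16.6% of 289 windows. It was 5.56% of 18 windows for the microglia list and 14.3% of 14 for the amacrine list. A match describes the letters of a window and is not a measured binding site.

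Across 13387 genes tested, 350 were higher in the rod-rich libraries (2.61%) and 9 were lower (0.0672%), where a gene counts if the log2 difference with stage in the model was at least 1 and the values of the 4 and the 6 libraries did not overlap. Since the rule chose the libraries, nothing is read from these shares about rods themselves. The median difference over all genes was -0.02. A second count, chosen after the data were seen, asks for no overlap within each of the 3 stages and found 527 higher (3.94%) and 13 lower (0.0971%). The difference between classes was one-sided in size: 733 genes stood at 1 or more above and 29 at 1 or more below.

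**Figure D1:**
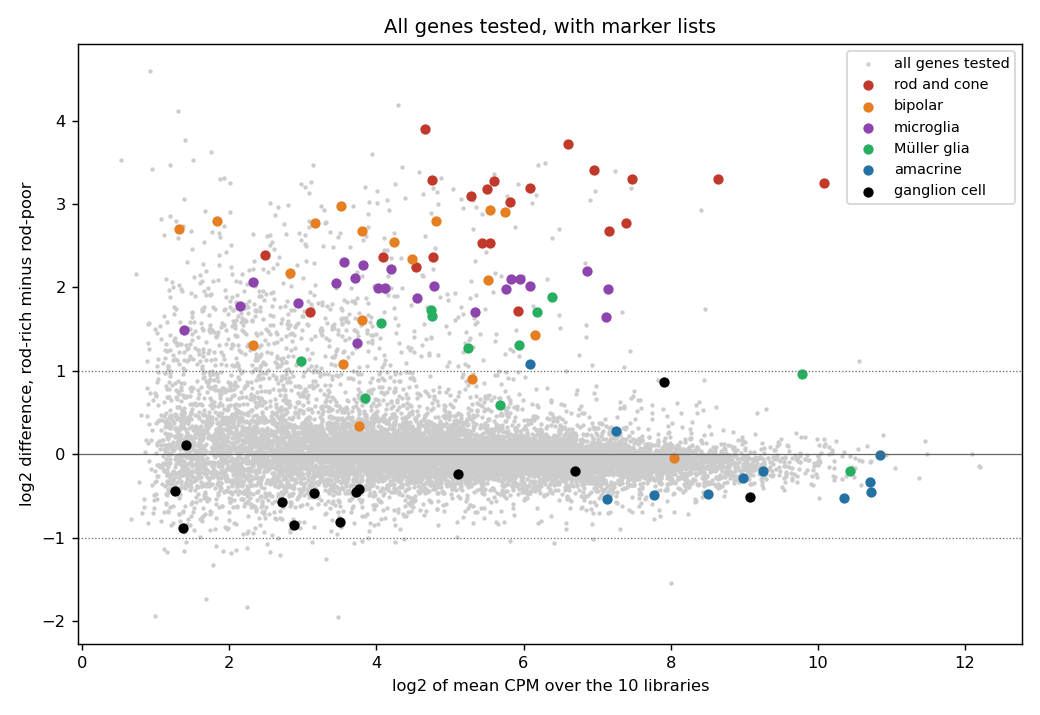
Each point is a gene; the horizontal axis is the log2 of its mean CPM over the 10 libraries and the vertical axis its log2 difference, rod-rich minus rod-poor, with dotted lines at 1 and -1. Rod, cone and most bipolar genes and all 22 microglia genes lie above 1, while amacrine genes lie mostly just below 0.

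The rod list itself describes how far apart the libraries were chosen. Sag, the rod arrestin that ends the light response, stood at 349, 518, 283 and 388 CPM in naive 4, naive 5, pre 4 and onset 3, against 20.0 to 49.5 CPM in the rod-poor libraries with a median of 40.8. Gnat1, the rod transducin alpha subunit, stood at 660, 968, 555 and 1284 CPM against 42.9 to 151 with a median of 92.0. Pde6b, a subunit of the rod phosphodiesterase, stood at 195, 308, 145 and 224 CPM against 7.82 to 27.2 with a median of 15.2. The 3 differences were 3.30 ± 0.24, 3.30 ± 0.31 and 3.72 ± 0.29 (log2, ± SE, 4 and 6 libraries). All 13 rod genes were called higher, from Reep6 at 1.71 to Nr2e3, the nuclear receptor that maintains rod identity, at 3.90, with a median of 3.28. Rod transcripts were present in every rod-poor library, as the values of these 3 genes show.

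Cone transcripts, which the rule did not name, were also high in the rod-rich libraries. All 9 cone genes were called higher, with a median of 2.38 beside 3.28 for rods. Arr3, cone arrestin, stood at 393, 500, 201 and 114 CPM in naive 4, naive 5, pre 4 and onset 3, against 22.2 and 59.6 in the rod-poor naive, 47.6 and 28.8 in pre and 57.0 and 13.4 in onset. The cone and rod levels were not in a fixed ratio: onset 3 had the highest Gnat1 of the rod-rich libraries and the lowest Arr3. Opn1sw, the short-wavelength cone opsin, likewise stood at 526 and 622 CPM in the naive rod-rich libraries, 157 in pre 4 and 117 in onset 3. The cone median within stages was 3.21 in naive, 1.82 in pre and 1.85 in onset, beside rod medians of 3.76, 2.70 and 3.21.

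Genes that both photoreceptor types use followed. Of 15 outer segment and disc genes 14 were called higher, with a median of 2.98, among them Prph2, which shapes the disc rim, at 3.19 ± 0.23 and Rp1, a microtubule protein of the outer segment, at 3.46 ± 0.42. Prom1, a membrane protein of disc formation, was the exception at 0.08 ± 0.22. Its levels were 372 to 906 CPM in rod-rich and 455 to 848 CPM in rod-poor libraries. Of 10 genes for recovery of the light response 8 were called higher, with a median of 3.14, including the photoreceptor kinase Grk1 at 3.40 ± 0.37 and phosducin (Pdc) at 3.49 ± 0.25. Rgs9 at 0.89 ± 0.17 and Gnb5 at 0.44 ± 0.08, partners that speed transducin shut-off, fell short of the limit of 1. The 5 regulators were all called, with a median of 2.90, including Crx at 3.02 ± 0.27 and Samd7 at 3.20 ± 0.31. At the photoreceptor terminal 3 of 4 genes were called, led by the calcium channel subunit Cacna1f at 3.18 ± 0.35. Of 23 synaptic vesicle and active zone genes, 2 were called higher. These were the ribbon synapse complexin Cplx4 at 3.19 ± 0.17 and the vesicular glutamate transporter Slc17a7, used by photoreceptors and bipolar cells, at 3.05 ± 0.23. The median of that list was -0.11.

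The 12 genes at the top of all those called with gene names included 7 of known photoreceptor function (Nr2e3, Pde6b, Pdc, Rp1, Gucy2f, Pde6a and Grk1) and 5 others: Lhx3 at 4.59 ± 0.62, Pdzph1 at 4.18 ± 0.29, Ccn4 at 4.12 ± 0.57, Gabrr3 at 3.63 ± 0.51 and Pla2r1 at 3.60 ± 0.45. Lhx3, a LIM homeodomain regulator, stood at 6.42, 5.54, 3.28 and 2.92 CPM in the rod-rich libraries and at 0 in 4 of the 6 rod-poor ones, where the others had 0.403 and 0.309. A count of 0 allows up to 3 counts per library, or 0.449 to 0.939 CPM in the 10 libraries, so the fitted fold of Lhx3 depends on the model and its size is not a bound. Pdzph1 had counts in every library, 26.3 to 79.2 CPM in the rod-rich and 1.01 to 2.93 CPM in the rod-poor class.

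Of the 350 higher genes 275 were on no list, and those named here were picked after their values were seen. Rbp3, the retinoid carrier between photoreceptors and pigment epithelium, stood at 717, 949, 391 and 821 CPM in the rod-rich libraries and at 63.5 to 115 CPM in the rod-poor ones, a difference of 2.93 ± 0.23. Kcnv2, a photoreceptor potassium channel subunit, differed by 3.14 ± 0.26, and Aipl1, a chaperone for the rod phosphodiesterase, by 2.96 ± 0.33. Hk2, a hexokinase with high expression in photoreceptors, was 72.6 to 123 CPM against 16.9 to 24.1 CPM, and Cpt1a, which takes fatty acids into mitochondria, was 37.5 to 73.8 CPM against 5.56 to 10.98 CPM. Spi1, the myeloid regulator PU.1, was also among them at 2.42 ± 0.30, with 2.62 to 14.9 CPM against 0.261 to 2.42 CPM.

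Transcripts of bipolar cells, the second-order neurons of the retina, were likewise mostly higher in the rod-rich libraries. Trpm1, the cation channel of ON bipolar cells, stood at 137, 153, 82.4 and 79.6 CPM in naive 4, naive 5, pre 4 and onset 3 against 7.84 to 19.8 CPM in the rod-poor libraries, a difference of 2.90 ± 0.30. Of 12 rod and ON bipolar genes 9 were called higher, with a median of 2.26, among them Grm6, the glutamate receptor of ON bipolar dendrites, at 2.80 ± 0.35 and Lrtm1 at 2.93 ± 0.34. Of 7 OFF and cone bipolar genes 4 were called, with a median of 2.54, including the calcium-binding protein Cabp5 at 2.54 ± 0.34 and Gsg1 at 2.97 ± 0.26. Prkca, protein kinase C alpha and a common rod bipolar marker, did not differ in the same way: it stood at 249 to 272 CPM in rod-rich and 206 to 348 CPM in rod-poor libraries, a difference of -0.05 ± 0.13. Of the 3 horizontal cell genes tested none was called.

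**Figure D2:**
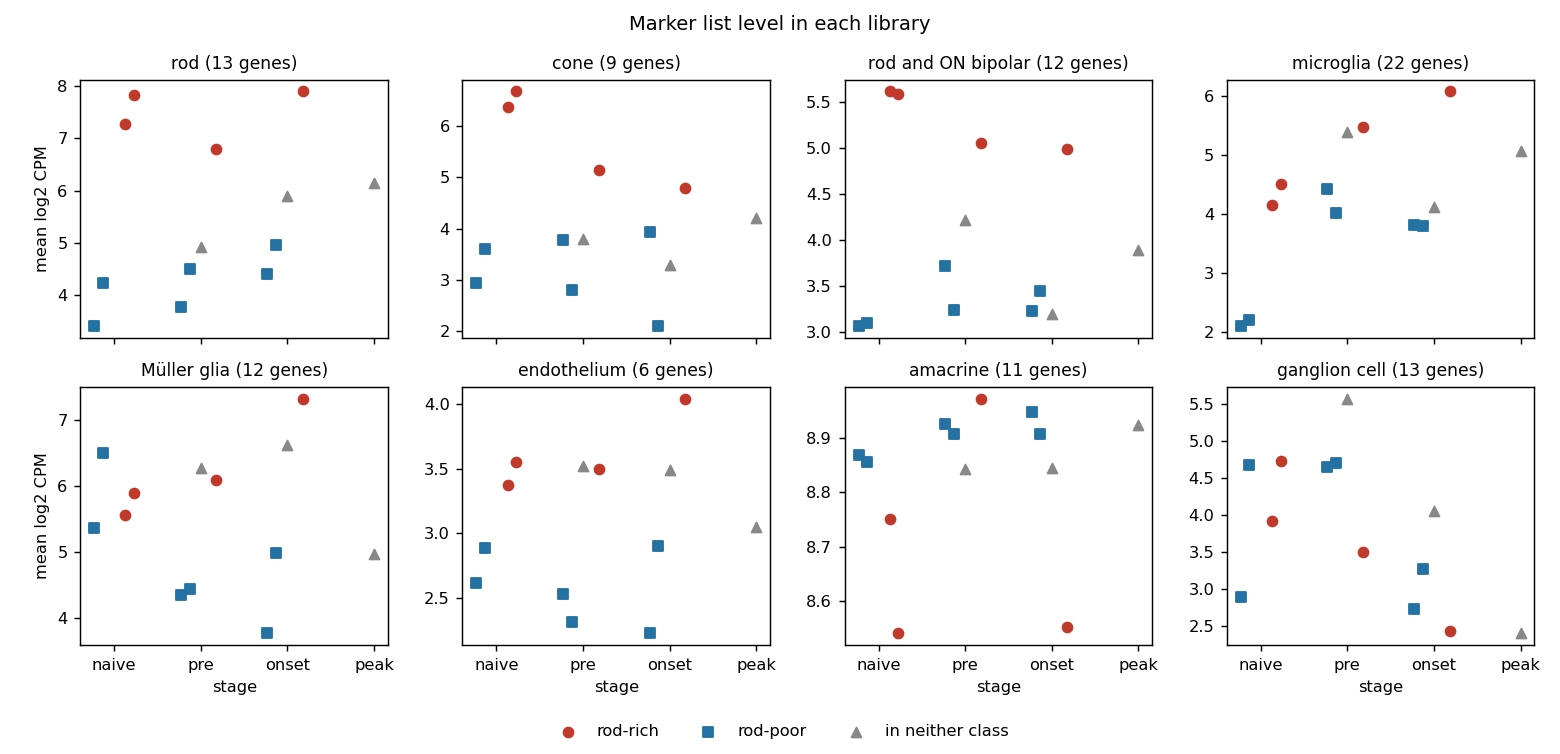
Each panel gives the mean log2 CPM of one marker list in each library by stage, with rod-rich, rod-poor and remaining libraries marked; vertical axes differ between panels. Rod, cone and bipolar levels separate the classes at every stage, microglia separate within a stage but also shift between stages, and Müller glia do not separate within naive.

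Microglia, the resident macrophages of the retina, were high in the rod-rich libraries of each stage. Csf1r, the receptor for their survival factor, stood at 99.4 and 126 CPM in the rod-rich and 21.6 and 23.3 CPM in the rod-poor naive libraries. In pre it was 282 CPM in the rod-rich library and 134 and 106 in the rod-poor ones, and in onset 441 against 90.5 and 91.9. The rod-rich library or libraries were thus above the rod-poor ones within every stage, while the naive rod-rich values overlapped the rod-poor values of EAE stages. All 22 microglia genes tested were higher within each stage, against 3.94% of all genes, and 3 were also free of overlap over all 10 libraries: P2ry12 at 2.22 ± 0.28, Tyrobp, a signalling adaptor, at 2.11 ± 0.19 and Gpr34 at 2.06 ± 0.43. The median over the list was 2.0, and 2.24, 1.28 and 2.30 within naive, pre and onset. The summed level of the list was 633 to 2748 CPM in the rod-rich and 155 to 777 CPM in the rod-poor libraries.

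Other immune transcripts were unevenly represented. Csf3r, the receptor for granulocyte colony-stimulating factor, was higher within each stage by 2.02 ± 0.27. S100a9, an abundant protein of neutrophils and monocytes, was at 0 counts in all 4 naive libraries, rod-rich ones included, which allows up to 0.939 CPM in the shallowest of them. In EAE libraries it stood at 4.37 to 19.7 CPM in the rod-poor and 17.1 and 40.1 CPM in the rod-rich class. Ighm, the immunoglobulin mu chain of B cells, was called higher at 1.95 ± 0.21, from 8.80 to 21.0 CPM against 1.83 to 7.26. No gene of the T cell list passed the filter on low counts. Of 10 interferon-response genes tested Irf7, a regulator of interferon induction, was called higher at 2.47 ± 0.34 and the list's median was 0.58, while antigen presentation had a median of 0.95 over 7 genes with none called. Without onset 3 these medians were 0.09 and 0.27.

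Müller glia did not keep one relation to the rods. Glul, the glutamine synthetase of these cells, stood at 842 and 883 CPM in the rod-rich naive libraries and at 758 and 1284 CPM in the rod-poor ones. In pre it was 1127 CPM against 490 and 426, and in onset 2132 CPM against 410 and 506. The list's 12 genes had a median of -0.24 within naive, 1.67 within pre and 3.29 within onset, and 1.29 over the stages with none called higher. Without onset 3 that median was 0.46. For Rlbp1, the retinaldehyde-binding protein of Müller glia, onset 3 stood at 256 CPM, naive 2 at 124 CPM and onset 2 at 8.25 CPM.

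Vascular transcripts showed a similar dependence on the library. The endothelial receptor Kdr, also found in other retinal cells, was higher within each stage by 1.55 ± 0.35, whereas Flt1 stood at 19.7 and 33.7 CPM in the rod-rich naive libraries, 23.8 and 55.2 in the rod-poor naive ones and 100 in onset 3. Of 6 endothelial genes tested Esam, an adhesion molecule, was called at 2.23 ± 0.24 and Eng, a co-receptor of the TGF-beta family, at 1.39 ± 0.31. The list's median was 1.42, and 0.88 without onset 3. Of the 3 genes tested from the pericyte and smooth muscle list only Vtn was called, at 3.07 ± 0.19. It stood at 46.1 to 95.3 CPM in rod-rich and 5.63 to 10.8 CPM in rod-poor libraries. That list had a median of 1.52, and of 0.55 without onset 3. Which cells the Vtn transcripts came from was not tested. Pdgfrb, the defining receptor of pericytes, stood at 2.14 and 2.99 CPM in the rod-rich and 3.44 and 9.41 CPM in the rod-poor naive libraries, so Vtn and Pdgfrb did not go the same way there.

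**Figure D3:**
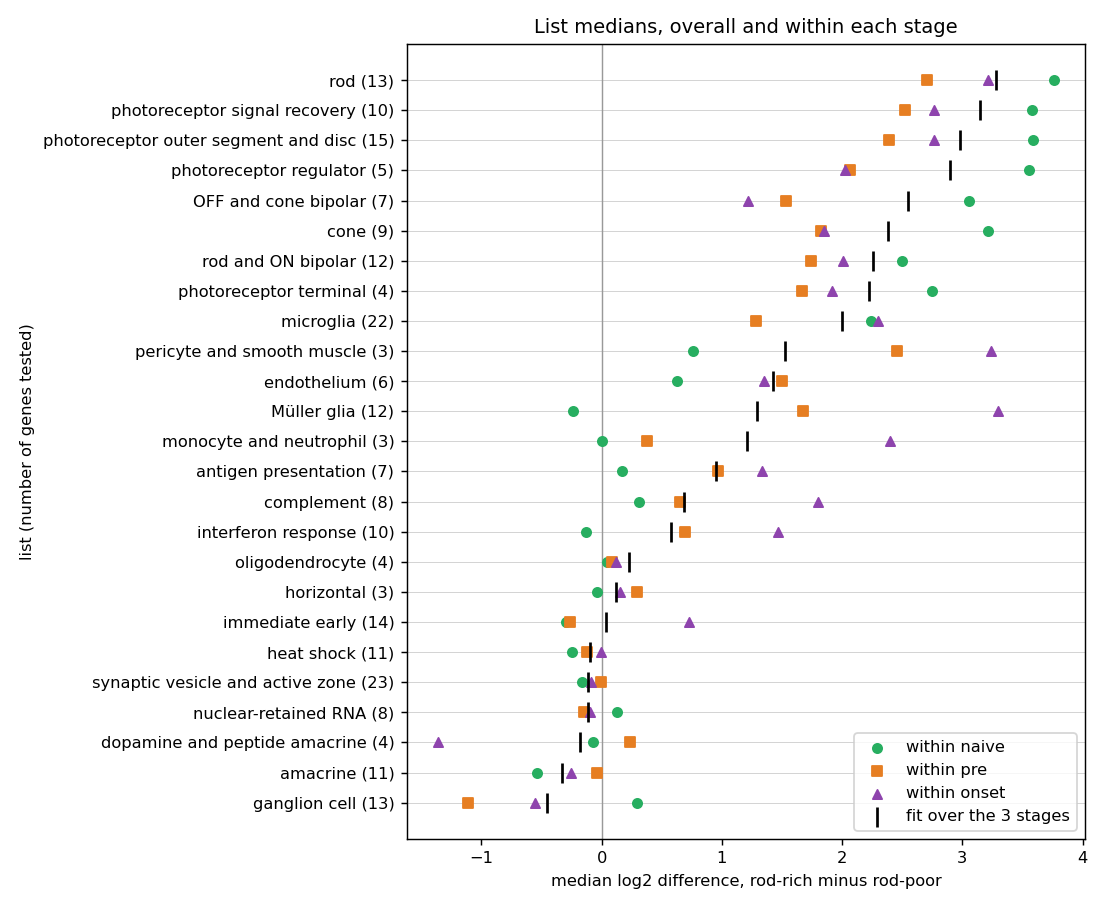
Points give the median log2 difference of each list within naive, pre and onset and the bar the value fitted over the 3 stages; lists with at least 3 genes tested are shown, with the number tested in brackets. Rod, cone, bipolar and microglia medians stay above 1 in every stage, while Müller glia run from -0.24 in naive to 3.29 in onset.

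Most amacrine genes were slightly lower in the rod-rich libraries, and, bipolar cells aside, few lists of inner retinal neurons followed the rods. Gad1, the GABA-synthesizing enzyme of amacrine cells, stood at 921, 752, 1377 and 1103 CPM in naive 4, naive 5, pre 4 and onset 3 and at 1213 to 1909 CPM in the rod-poor libraries with a median of 1460. Pre 4 lay inside the rod-poor range and the others below it, a difference of -0.52 ± 0.18. Of 11 amacrine genes 9 were below 0, none was called and the median was -0.33, beside -0.02 for all genes. Slc6a9, the glycine transporter of glycinergic amacrine cells, was at 1381 to 2132 CPM against 1399 to 2537 CPM, a difference of -0.01 ± 0.18. Dopamine and peptide amacrine genes had a median of -0.18 with none of 4 called. Of the starburst amacrine list 2 genes passed the filter, Megf10 at 0.58 ± 0.33 and Sox2 at 1.45 ± 0.72, with a median of 1.01 and none called. Their median was -0.11 within naive, 1.47 within pre and 2.49 within onset. Sox2 is also expressed by Müller glia. CPM are levels relative to the scaled total of a library. Whether the higher levels of other transcripts had a part in these values was not tested.

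The ganglion cell transcripts that the labels lead one to look for varied from library to library without following the classes. Rbpms, an RNA-binding protein that marks ganglion cells, stood at 9.75, 20.1, 7.05 and 3.98 CPM in the rod-rich libraries. In the rod-poor ones it was 3.75 and 18.6 in naive, 30.8 and 27.3 in pre and 5.58 and 5.10 in onset. Slc17a6, their vesicular glutamate transporter, stood at 12.1, 29.5, 5.29 and 2.12 CPM against 1.25 to 27.2 CPM, and the difference was -0.41 ± 0.78. Pou4f2, a defining regulator of ganglion cells, was at 0 counts in onset 2, onset 3 and peak 2 and at 19.2 CPM in pre 3. None of 13 ganglion cell genes was called, and their median was -0.46, with 0.29 within naive, -1.11 within pre and -0.56 within onset. The median was -0.92 without naive 5 and -0.16 without pre 4. Without pre 4 the differences of Rbpms and Slc17a6 were above 0, at 0.18 and 0.31.

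Marker lists of tissue from outside the retina were at low summed levels, and no gene of the lists for red blood cells, corneal epithelium, lens or fibroblasts passed the filter. Summed lens transcripts nevertheless did not overlap between the classes, at 2.99 to 4.79 CPM in the rod-rich and 0.939 to 2.01 CPM in the rod-poor libraries. These sums rest on few reads. Of the 10 lens genes 5 had 0 counts in all 13 libraries, and 0.939 CPM is the level of 3 counts in naive 1. The sums overlapped for the other lists: at most 0.252 CPM in rod-rich and 0.243 in rod-poor libraries for red blood cells, at most 0.252 and 0.523 CPM for corneal epithelium, and at most 2.55 and 2.35 CPM for fibroblasts. Of the pigment epithelium list 1 of 12 genes passed, at -0.32. Oligodendrocyte genes had a median of 0.22 over 4 tested with none called, and Mbp, a myelin protein, stood at 24.9 to 49.7 CPM against 17.2 to 32.3 CPM.

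The few genes lower in rod-rich libraries formed no fixed list. The named ones were Cntnap3 at -1.20 ± 0.22, Gng8 at -1.16 ± 0.27, Olfml2b at -1.05 ± 0.11, Nr4a1 at -1.02 ± 0.23, Entpd3 at -1.02 ± 0.19, complement C2 at -1.01 ± 0.29 and Npr3 at -1.0 ± 0.20. Nr4a1 is an immediate early gene, induced within minutes of stimulation, and stood at 62.7 to 96.6 CPM in rod-rich and 101 to 230 CPM in rod-poor libraries. Egr1, of the same kind, was at 64.4, 80.6, 46.9 and 332 CPM against 139 to 881 CPM, with onset 3 inside the rod-poor range. The immediate early list had a median of 0.04 over 14 genes, heat shock genes -0.09 over 11 and nuclear-retained RNAs -0.12 over 8.

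Some technical readouts moved with the classes. The share of all reads in the table that were assigned to no feature was higher in the rod-rich libraries within every stage. It was 27.2 and 27.6% against 25.0 and 26.7% in naive. In pre it was 26.3% against 25.2 and 26.03%, and in onset 25.6% against 25.1 and 25.3%. Over all 10 libraries the ranges overlapped. The 100 most abundant genes took 12.5 to 13.1% of gene reads in rod-rich and 12.9 to 13.2% in rod-poor libraries. The mitochondrial ribosomal RNAs mt-Rnr1 and mt-Rnr2, looked at after their values were seen, were higher within each stage by 1.74 ± 0.43 and 1.12 ± 0.32. Together they stood at 2713 and 4732 CPM in the rod-rich naive libraries and 777 and 962 CPM in the rod-poor ones, at 2238 against 1600 and 1973 CPM in pre, and at 1643 against 1104 and 893 CPM in onset. The part of these readouts in the differences above was not tested.

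**Figure D4:**
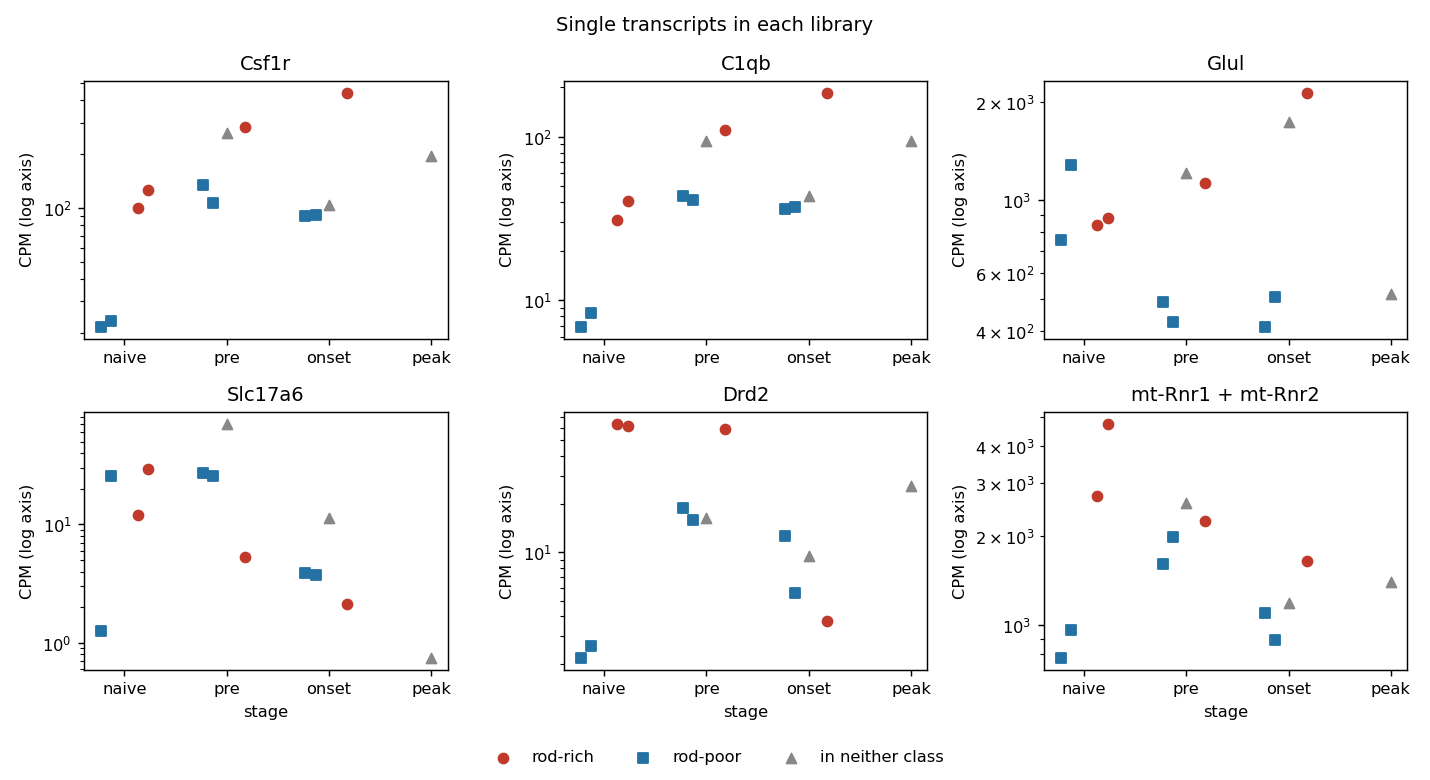
CPM on log axes in each library by stage for Csf1r and C1qb (microglia), Glul (Müller glia), Slc17a6 (ganglion cells), Drd2 (dopamine receptor) and the sum of mt-Rnr1 and mt-Rnr2. Csf1r and C1qb are higher in the rod-rich libraries of every stage and lowest in naive 1 and naive 2, and Drd2 in onset 3 lies below the rod-poor onset libraries.

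The stages were then compared with the class as a term, so that naive and EAE libraries were set against each other within a class. Rod levels still differed within a class. The mean log2 CPM of the selecting rod transcripts was 4.28 and 5.20 in the rod-poor naive libraries. It was 4.86 and 5.44 in those of pre and 5.52 and 5.87 in those of onset. In the rod-rich class it was 8.48 and 9.07 in naive, 8.15 in pre and 8.91 in onset. The part of this spread in the stage counts was not tested. The classes were chosen on these libraries and similar results with a rod covariate were known beforehand, so these counts are not independent evidence. In pre against naive 27 genes rose (0.202% of those tested) and 0 fell, and in onset against naive 39 rose (0.291%) and 3 fell (0.0224%), at an adjusted p below 0.05 in edgeR's quasi-likelihood test. At an unadjusted p below 0.05 the counts were 833 and 871, and 25 genes rose in both. Of 22 microglia genes 11 rose in each stage, 10 of them in both, with list medians of 1.82 in pre and 1.70 in onset. All 27 genes that rose in pre and the 39 that rose in onset also stood at least 1 higher in rod-rich than in rod-poor libraries. Without the class term 0 genes passed in either stage by the same test.

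C1qb, a chain of complement C1q made by microglia, stood at 6.88 and 8.37 CPM in the rod-poor naive libraries, 43.5 and 40.9 in pre and 36.4 and 37.4 in onset. In the rod-rich class it stood at 31.1 and 40.6 CPM in naive, 110 in pre and 186 in onset. Each class alone thus placed naive below EAE without overlap, while the naive rod-rich values lay beside the rod-poor EAE values. C1qb rose by 2.09 ± 0.20 in pre (adjusted p = 0.0131) and by 2.23 ± 0.19 in onset (adjusted p = 0.00562, edgeR). Tmem119, a surface protein of resident microglia, rose by 1.70 in pre (adjusted p = 0.016) and 1.56 in onset (adjusted p = 0.012). Other risers were Selplg, the selectin ligand of leukocytes, Ncf1, a subunit of the phagocyte oxidase, and the phosphatase Inpp5d in both stages. Ccl3, a chemokine, rose by 2.73 ± 0.31 in onset (adjusted p = 0.0106), from 1.31 to 4.94 CPM in naive to 40.1 CPM in onset 3 and 5.34 and 10.04 CPM in the rod-poor onset libraries. The 3 genes that fell in onset were Gpr26, an orphan receptor of neurons, by 1.31 ± 0.20, Adam11 by 0.59 ± 0.09 and Celf3, a neuronal RNA-binding protein, by 0.58 ± 0.09 (adjusted p = 0.0324, 0.0324 and 0.0386). In the same fit the 13 rod genes had medians of -0.31 in pre and 0.49 in onset, and Müller genes -0.85 and -0.03, with none past the threshold. The 13 ganglion cell genes tested had medians of -0.04 in pre and -1.90 in onset, also with none past the threshold. Of these 13, 1 stood above 0 in the onset comparison, beside 6703 of all 13387 genes.

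These counts rest on few libraries. Under a replicate block the pre count of 27 became 9, of which 6 were among the 27. With that block the onset count of 42 became 1, a gene that was not among the 42. The pre count was 5 without naive 1, 6 without naive 2, 0 without naive 4, 1 without naive 5, 3 without pre 1, 0 without pre 2, 45 without pre 4, 15 without onset 2, 17 without onset 3 and 12 without onset 4. The onset count of 42 was 18, 9, 0 and 3 without naive 1, 2, 4 and 5, 20 without pre 2, 20, 0 and 18 without onset 2, 3 and 4, and 34 and 62 without pre 1 and pre 4. Each time, every called gene that still passed the filter on low counts kept its direction.

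Whether the class difference itself changed with disease was tested as an interaction, the rod-rich minus rod-poor difference in EAE (mean of pre and onset) minus that in naive. As rod transcripts of these same libraries chose the classes, the calls of this test are not independent evidence. At an adjusted p below 0.05 (edgeR) 9 genes were higher (0.0672%) and 9 lower (0.0672%), with 1910 genes at an unadjusted p below 0.05. Slc7a8, an amino acid transporter, stood at 45.2 and 50.6 CPM in rod-rich and 89.8 and 83.1 CPM in rod-poor naive libraries, but at 101 against 60.7 and 56.7 in pre and 125 against 54.6 and 42.3 in onset. Its interaction was 1.93 ± 0.19 (adjusted p = 0.02). The peroxiredoxin Prdx6 (1.5 ± 0.16), the G protein subunit Gnai2 (1.22 ± 0.14) and the basement membrane collagen Col4a5 (3.49 ± 0.41) had the same adjusted p. All 12 Müller genes had an interaction above 0, beside 6421 of all 13387 genes. Their median was 2.62 beside -0.02 over all genes, and none passed the threshold. Among the 10 libraries the mean log2 CPM of the Müller list was highest in onset 3, at 7.33, and next in the rod-poor naive 2, at 6.51.

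Among the lower genes Drd2, the D2 dopamine receptor, was high in naive 4, naive 5 and pre 4 at 63.2, 61.2 and 59.0 CPM and low in onset 3 at 3.72 CPM. In the rod-poor libraries it was 2.19 and 2.61 in naive, 18.9 and 15.9 in pre and 12.6 and 5.56 in onset. The interaction was -4.40 ± 0.50 (adjusted p = 0.02, edgeR). Slc6a12, a betaine and GABA transporter, followed the same libraries, at 53.3, 44.5 and 46.1 CPM and at 0.265 CPM in onset 3, with an interaction of -4.74 ± 0.52. Without onset 3 the interaction was -1.29 for Slc6a12 and -2.91 for Drd2, and without pre 4 it was -8.22 and -5.92. Fgf1, a fibroblast growth factor, stood at 45.9, 43.9 and 49.4 CPM and at 2.92 CPM in onset 3. Otx2, on the photoreceptor regulator list, stood at 83.4 and 76.4 CPM in the naive rod-rich libraries and 31.7 and 35.6 CPM in pre 4 and onset 3, with an interaction of -2.21 ± 0.27. The rod-rich EAE libraries were also less rod-rich relative to their stage than the naive ones: the 13 rod genes had an interaction median of -0.75, cones -1.48 and rod and ON bipolar genes -0.89. Their part in the interaction calls was not tested. Without onset 3 or without naive 5 the interaction gave 0 calls, without naive 4 it gave 2 and without pre 1 it gave 9. Without naive 1, pre 4, onset 2 and onset 4 it gave 66, 42, 346 and 144.

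The 3 libraries in neither class lay between the classes in different ways. Of the 350 higher genes, pre 3 was at or below the highest rod-poor value for 126, between the classes for 148 and at or above the lowest rod-rich value for 76. For onset 1 the counts were 179, 136 and 35, and for peak 2 they were 85, 188 and 77. Pre 3, with rod levels near the rod-poor limit, had Csf1r at 263 CPM, Glul at 1213 CPM and the highest Rbpms of the table at 64.6 CPM. Onset 1 had Glul at 1735 CPM and Csf1r at 103 CPM, and peak 2, with the most rod transcripts of the 3 by the selecting score, had Glul at 517 CPM and Csf1r at 194 CPM. Across these 3 libraries, each from a different stage, neither Glul nor Csf1r followed the order of the rod score. Within its stage, Csf1r in pre 3 lay between the rod-poor libraries, at 134 and 106 CPM, and the rod-rich one, at 282 CPM. Csf1r in onset 1 lay between 90.5 and 91.9 CPM in the rod-poor onset libraries and 441 CPM in the rod-rich one. Glul in onset 1 also lay between the classes of its stage, but in pre 3 it stood above the rod-rich pre library, at 1127 CPM.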

How the data were processed

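The authors deposited 1 table of read counts per gene for 13 libraries, with 40840 genes and 5 summary lines. Per the submitters' processing notes, the tools were HTSeq, HISAT2, DESeq2 and cutadapt. For versions, build, annotation and strand, no value was given in the sources used here. Reads of overlapping or antisense genes therefore cannot be told apart. The labels also list a second peak sample, not analysed here.

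Summary lines were left out. Genes were kept with edgeR's filterByExpr by class (minimum count 10), leaving 13387, and libraries scaled by TMM over all 13. A log2 difference and its SE come from edgeR 4.0.16 (R 4.3.3) on the 10 libraries with stage and class as terms (6 residual degrees of freedom, 4 with the interaction). CPM use the scaled totals. The quasi-likelihood test with Benjamini-Hochberg adjustment over all genes was used for pre or onset against naive and for the interaction, and was checked on simulated counts. DESeq2 1.42.0, limma 3.58.1 voom, other scaling, no filter, a replicate block and leaving out each library were alternatives. Same-numbered naive and pre libraries deviated together (r of 0.22 to 0.35 in 3 pairs from the replicate numbers in the labels, which also share their class), so the block is given beside that comparison. Pairs with onset were mixed, with r of -0.08 to -0.04 for naive and -0.45 to 0.29 for pre, and the block is given there too. Limits from 3 counts cover counting error only.

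Members and lists were chosen with earlier results of these data known. In the class contrast, the 12 highest and lowest called genes with the same sign in each stage and at least 1 CPM in the higher class were named, with up to 4 called members per list (else 2), and up to 6 genes each way by p in each test. Other list members were named as examples after their values were seen. The 13 protein-coding mitochondrial genes of one list are not analysed here. Promoters were matched to RefSeq by symbol: 259 of the 350 higher genes had one.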

Additional observations from a re-analysis of the deposited data

Results flagged for a closer look

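The interaction between class and disease was past the threshold for 18 genes (edgeR, adjusted p below 0.05, EAE minus naive). The 12 named by the rule are given here because the class difference in EAE differed from that in naive by this test. The classes were chosen on rod transcripts of these same libraries, so the calls are not independent evidence. The rod list itself had an interaction median of -0.75. The difference was larger in EAE for Slc7a8 by 1.93, Prdx6 by 1.5, Gnai2 by 1.22, Col4a5 by 3.49, Ctsl, a lysosomal protease, by 1.64 and Sntb1, a syntrophin, by 2.35. For Ctsl the rod-rich naive libraries stood at 121 and 119 CPM against 305 and 239 CPM in the rod-poor ones, and the EAE libraries at 314 and 285 CPM against 167 to 257 CPM. It was -4.74 for Slc6a12, -4.40 for Drd2, -2.21 for Otx2, -3.37 for Fgf1, -3.29 for Mapk12, a stress-activated kinase, and -1.77 for Kcnq3, a potassium channel subunit. Mapk12 stood at 30.4, 27.6 and 34.8 CPM in naive 4, naive 5 and pre 4 and at 2.12 CPM in onset 3. Without onset 3 the interaction was -2.02 for Mapk12 and -1.67 for Fgf1, and without pre 4 that of Fgf1 was -5.10. Each EAE stage holds 1 rod-rich library, so a stage and that library cannot be told apart. In a separate check, 0 of 60 sets of libraries held a library that stood apart from its group. That check cannot show that these calls do not rest on a single library. Without onset 3 the interaction gave 0 calls.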

How the results depend on the processing

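Depth, 4 against 6 libraries and classes cut from a continuous score limit these results. The 350 higher genes became 322 to 514 over other scaling, tools, filters and the block, 193 at a log2 difference of at least 2, and 358 to 487 when each library was left out. The 527 higher within each stage became 901 without a filter, 213 at a difference of 2 and 532 to 678 when a library was left out. A rule of no overlap is easier to meet with fewer libraries. The larger counts with a library left out are therefore no measure of stability. The 9 lower genes became 28 without a filter, 47 at 0.5, 0 at 2 and 6 to 41 when a library was left out, with 41 without pre 4, 19 without onset 3 and 16 without naive 4. Among lists with at least 3 genes tested, 13 had a median of 1 or more, and 9 to 15 when a library was left out. No scaling moved the median of all genes by more than 0.1. Without a filter pre, onset and interaction calls were 523, 498 and 1004, with 21, 21 and 5 microglia genes; DESeq2 gave 83, 110 and 188, with 18 and 20 microglia genes in the stages, and voom gave 10 interaction genes. Without the class term the stages gave 0 genes and 0 microglia genes. Leaving out 1 library gave 0 to 45 in pre, 0 to 62 in onset and 0 to 346 in the interaction, and 0 to 16, 0 to 15 and 0 microglia genes. The cause was not tested.

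Over all 10 same-numbered pairs r ran from -0.45 to 0.35, over 0.1 in 5. Onset and naive pairs had r of -0.08 to -0.04. Onset and pre pairs were mixed, with 0.29 for replicate 2, 0.18 for replicate 3, -0.23 for replicate 1 and -0.45 for replicate 4. With a replicate block (2 residual degrees of freedom) pre gave 9 genes with 5 microglia genes and onset 1 with 0, and medians reversed for Müller glia (-0.73), monocyte and neutrophil (-2.257), endothelium (-0.26) and pericyte (-0.48) lists, as did Nr4a1 (0.25). For the interaction a block left no residual degrees of freedom, and it was not fitted. Under DESeq2 and voom the 27, 42 and 18 called genes all kept their direction.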
